A study of Mus musculus with 6 samples.

Results

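A set of 10 genes of the TGF-beta pathway were followed in mouse hypothalamus, out of 24513 genes with a row in the count tables: the ligand genes Tgfb1, Tgfb2 and Tgfb3, the receptor genes Tgfbr1 and Tgfbr2, the signal carriers Smad2, Smad3 and Smad4, and the inhibitors Smad7 and Skil. They were chosen by pathway membership with the levels of Smad3 in these same libraries already known to differ between the groups, so their differences are given as a description and support nothing further. All 10 passed the filter on low counts, as did 15894 genes in all. The animals were C57BL/6 mice of 3 to 4 months, 3 wild type (WT) and 3 NS-DADm, with 1 RNA library from the hypothalamus of each animal. NS-DADm mice, as known for the line and not from the labels, carry point mutations in the deacetylase-activating domain of both nuclear receptor corepressors, NCOR1 and SMRT, the domain through which these proteins switch on the histone deacetylase HDAC3. The mutations are in the germ line, so they are not limited to neurons or to the hypothalamus. No treatment is given for either group.

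TGF-beta ligands are secreted in a latent form. Once released, they bind the type II receptor TGFBR2, which recruits and phosphorylates the type I receptor TGFBR1. This receptor phosphorylates SMAD2 and SMAD3, which join SMAD4 and enter the nucleus to regulate transcription. SMAD7 blocks the receptor and SKIL (also called SnoN) represses the SMAD complex on DNA, and both genes are themselves induced by the pathway, which forms a negative feedback. In brain, the pathway is known for keeping microglia in their mature state, for vessel stability and for responses of astrocytes to injury.

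The gene with the difference, Smad3, lies on mouse chromosome 9 (mm10, 63646767 to 63757994, minus strand). The 250 bases before its transcription start, chr9:63757995-63758244 on the minus strand of GRCm38.p6 from RefSeq, are shown because Smad3 is the gene whose level differed. Capitals mark AGAC, the core that SMAD3 and SMAD4 bind on DNA, searched on both strands.

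Smad3 promoter: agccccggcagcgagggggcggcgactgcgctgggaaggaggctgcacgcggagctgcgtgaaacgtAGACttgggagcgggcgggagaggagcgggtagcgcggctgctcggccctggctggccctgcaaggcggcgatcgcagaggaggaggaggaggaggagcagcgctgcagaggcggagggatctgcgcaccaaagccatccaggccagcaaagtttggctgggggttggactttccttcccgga

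AGAC or its reverse complement GTCT was found once, 183 to 180 bases before the start. It is a common word, found in 88.0% of the 32851 promoter windows of 300 bases (250 before to 50 after the start), and a match is a description of letters, not of binding. CAGAC, which contains AGAC, was not found in the Smad3 window and was in 49.6% of all windows. Neither GGCGCC, another SMAD-bound word (11.9% of windows), nor AGGTCA, the word that nuclear receptors bind (16.3%), was found there, each on both strands. G and C made up 67.7% of the Smad3 window, against a median of 52.7% over all windows. Promoters of 5 of the 10 genes had an entry: Smad3, Tgfb1, Tgfb2, Tgfbr1 and Tgfbr2. CAGAC occurred in 2 places in the Tgfb2 window, in 1 place in the Tgfbr2 window and in none in that of Tgfb1. Tgfbr1 had 2 windows, of which 1 held CAGAC once and the other GGCGCC once.

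Reads on genes numbered 24.2 to 27.6 M (units of 1e6) per library, and the 10 genes together took 8311 to 9515 reads in each. Hypothalamic neuron markers (Pomc, Agrp, Hcrt, Oxt and 7 others) had reads in every library, with summed levels of 683 to 838 CPM (reads per 1e6 reads on genes, scaled). Summed markers of 2 neighbouring tissues differed between the groups. The 13 thalamus markers summed to 755 to 1154 CPM in WT and 508 to 593 CPM in NS-DADm. The 10 anterior pituitary markers summed to 82.7 to 156 CPM in WT and 245 to 2079 CPM in NS-DADm, highest in NS-DADm 2. Gh alone gave 167, 1810 and 172 CPM of that sum in NS-DADm 1 to 3, and 30.5, 40.6 and 96.0 CPM in WT 1 to 3. Pomc is in both the pituitary and the hypothalamic list. Of 8 pituitary markers tested, all were fitted above 0 and none was called. NS-DADm libraries stood apart as higher for 3 of them, as in 7.86% of all genes. Of the 11 hypothalamic neuron markers, 10 were fitted above 0 in NS-DADm and 1, Trh, was called higher. Of 10 mature oligodendrocyte markers 9 were fitted below 0, none of them called, with a median log2 fold change of -0.18. Unadjusted edgeR p was under 0.05 for 7 lower and 1 higher, beside 6.46 and 4.40% of all genes. NS-DADm libraries stood apart as lower for 5 and higher for 1, beside 8.93 and 7.86%. The sums overlapped, at 5231 to 5641 CPM in WT and 4600 to 5291 CPM in NS-DADm. Thalamus and pituitary values are set beside Smad3 below, with a fit that takes the thalamus markers as a covariate but cannot separate them from genotype. Otherwise the part of these lists in the differences below was not tested. In whole tissue, fewer cells of a type and less RNA per cell cannot be told apart.

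Of the 10 genes, Smad3 alone was higher past the threshold in NS-DADm mice (edgeR quasi-likelihood test, Benjamini-Hochberg adjusted p under 0.05 over all 15894 genes), and none was lower. Over all genes, 0.0818% were called higher and 0.573% lower. Because knowledge of this contrast entered the choice of genes, nothing is read from the share of 1 in 10. The median log2 fold change of the 10 genes was 0.001, with 5 fitted above 0 and 5 below, beside a median of 0.004 over all tested genes. Libraries of the groups did not overlap for Smad3 (higher in NS-DADm, as in 7.86% of all genes) and Smad7 (lower, as in 8.93%), and overlapped for the other 8.

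**Figure D1:**
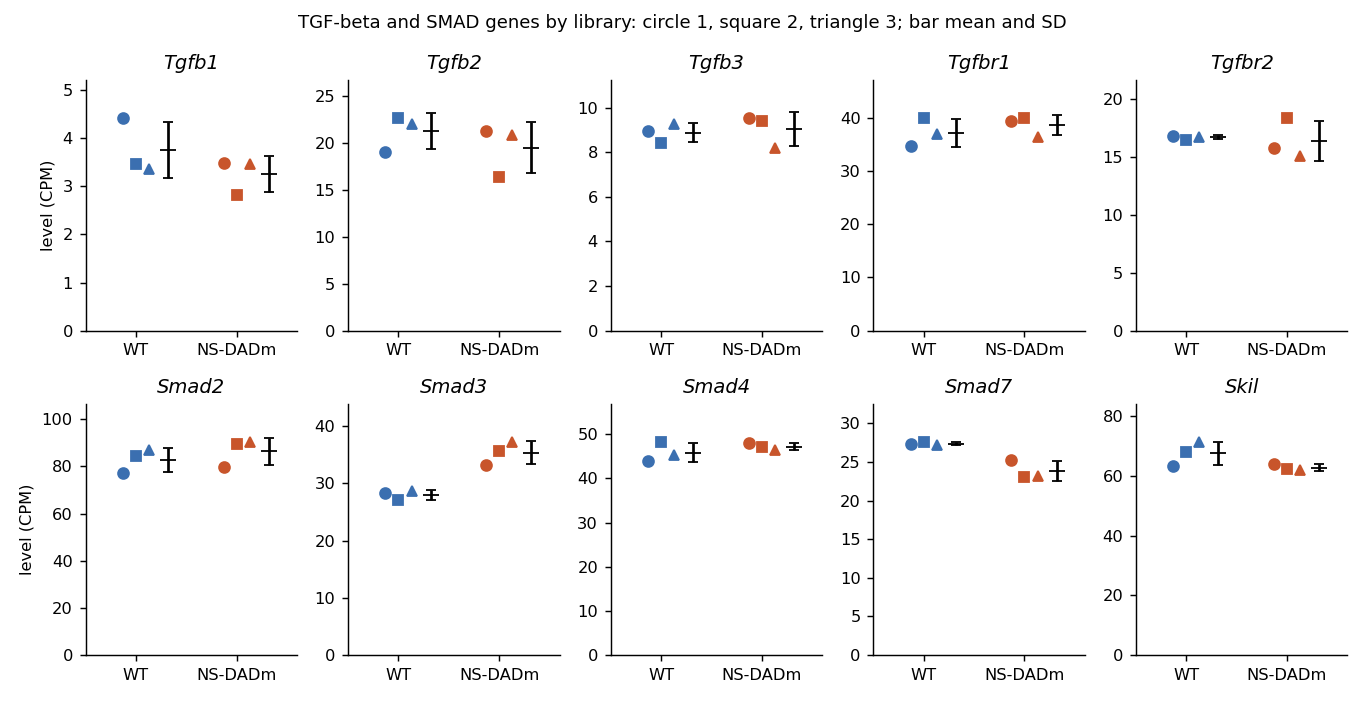
Level (CPM, vertical axes from 0) of each of the 10 genes in the 3 WT (blue) and 3 NS-DADm (orange) libraries, with circles, squares and triangles for animals 1, 2 and 3 and a bar for the mean and SD. The groups stand apart for Smad3 (27.1 to 28.7 against 33.3 to 37.2 CPM) and for Smad7 (27.3 to 27.6 against 23.1 to 25.3 CPM).

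The ligand genes did not differ past the threshold. Tgfb2, on chromosome 1, held 19.1, 22.7 and 22.1 CPM in WT 1 to 3, whereas NS-DADm 1 to 3 had 21.3, 16.4 and 20.9 CPM. NS-DADm 2 was the lowest of the 6, and the other NS-DADm libraries lay within the WT range. The log2 difference was -0.13 ± 0.10 (SE), with a 95% interval from -0.35 to 0.10, and -0.013 without NS-DADm 2. Tgfb3, on chromosome 12, held 8.41 to 9.24 CPM in WT and 8.18 to 9.53 CPM in NS-DADm, with an interval from -0.19 to 0.24 for the log2 difference. Tgfb1, on chromosome 7, rested on the fewest reads, 89 to 121 per WT library and 78 to 91 per NS-DADm library. The WT levels were 4.42, 3.47 and 3.37 CPM and the NS-DADm levels 3.48, 2.82 and 3.46 CPM, so WT 1 stood above the rest and the other 5 libraries were intermingled. Its interval, from -0.55 to 0.13, was the widest of the 10 and does not exclude a decrease as large in size as the increase of Smad3.

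Compared per kilobase of exon (RPKM, from the union of annotated exons), Tgfb2 was the most abundant ligand gene in every library, with 2.83 to 3.92 RPKM against 2.42 to 2.82 for Tgfb3 and 0.56 to 0.88 for Tgfb1. Tgfb2 made up 45.9 to 55.3% of the 3 ligands' summed RPKM, Tgfb3 35.0 to 45.1% and Tgfb1 9.1 to 12.9%. In NS-DADm 2, Tgfb2 and Tgfb3 were nearly level, at 45.9 and 45.1%. Tgfb1 is the form that microglia and other immune cells mostly make, whereas Tgfb2 and Tgfb3 are the forms of neurons and glia. The annotated exons of Tgfb1 include transcript forms of uncertain use, and with its longest transcript as the length it measured 1.10 to 1.72 RPKM, still the lowest. On that length Tgfb2 measured 3.21 to 4.44 and Tgfb3 2.42 to 2.82 RPKM. The share of Tgfb1 would then be larger than given above.

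Neither receptor gene passed the threshold. Tgfbr1, on chromosome 4, stood at 34.8, 40.0 and 37.0 CPM in WT 1 to 3, beside 39.6, 40.0 and 36.6 CPM in NS-DADm 1 to 3, with a log2 interval from -0.09 to 0.20. Tgfbr2, on chromosome 9, had WT levels of 16.9, 16.5 and 16.8 CPM and NS-DADm levels of 15.8, 18.4 and 15.1 CPM, with an interval from -0.21 to 0.16. The WT libraries agreed closely for Tgfbr2, and the NS-DADm libraries lay on both sides of them. The coefficient of variation in WT was 1.06%, below the 4.7% that counting its reads alone gives, so the WT spread understates the error. Per kilobase, Tgfbr1 exceeded Tgfbr2 in every library, at 5.33 to 6.13 against 1.84 to 2.25 RPKM.

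Among the signal carriers, Smad3 passed the threshold and Smad2 and Smad4 did not. Smad3 had 775, 741 and 759 reads in WT 1 to 3, and 813, 987 and 978 reads were counted in NS-DADm 1 to 3. Scaled for depth, WT had 28.3, 27.1 and 28.7 CPM and NS-DADm had 33.3, 35.7 and 37.2 CPM. The lowest NS-DADm library, NS-DADm 1, was above the highest WT library. The coefficient of variation in WT was 3.1%, below the 3.63% that counting alone gives, so here too the WT spread understates the error. In NS-DADm it was 5.62%, against 3.29% from counting. The rise was 1.26-fold (log2 0.34 ± 0.06 SE, 95% interval 0.20 to 0.47; edgeR, BH adjusted p = 0.034), and Smad3 ranked 75th of all genes by p. That adjusted p is one of the values known when the genes were chosen.

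Smad2, the closest relative of Smad3, stood at 77.1, 84.3 and 86.9 CPM in WT 1 to 3, beside 79.9, 89.3 and 90.2 CPM in NS-DADm 1 to 3. In both groups animal 1 was the lowest, and the ranges overlapped. Its log2 interval, from -0.07 to 0.20, touches that of Smad3 only at its upper end, and a test of one gene's change against the other's was not made. Smad4, the partner shared with the BMP branch, ranged over 44.0 to 48.2 CPM in WT and 46.5 to 48.0 CPM in NS-DADm, so all NS-DADm libraries lay within the WT range. The 2 receptor-activated SMAD transcripts aligned at 77.1% identity over 1196 bases. No other of the 10 genes had a relative closer than this over more than 300 bases.

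Ratios of reads within a library do not depend on the scaling between libraries. Smad3 reads per Smad2 read were 0.367, 0.321 and 0.331 in WT 1 to 3, against 0.416, 0.400 and 0.412 in NS-DADm 1 to 3, with all NS-DADm libraries above all WT libraries. Smad3 reads per Smad7 read were 1.036, 0.983 and 1.054 in WT, against 1.316, 1.549 and 1.603 in NS-DADm. Signal carrier and inhibitor thus had almost equal reads in WT, and the carrier had more in each NS-DADm library. These ratios carry the same measurements as the levels and are no separate evidence.

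The inhibitors had lower means in NS-DADm mice without passing the threshold. Smad7, which recruits ubiquitin ligases to the active receptor, stood at 27.3, 27.6 and 27.3 CPM in WT 1 to 3 but at 25.3, 23.1 and 23.2 CPM in NS-DADm 1 to 3. Every NS-DADm library was below every WT library. The log2 difference was -0.20 ± 0.06 (SE), with an interval from -0.34 to -0.06 before any adjustment (edgeR, BH adjusted p = 0.24). The WT libraries had a coefficient of variation of 0.534%, narrower than the 3.67% that counting 741 reads alone gives, so their spread understates the error. Skil had WT levels of 63.4, 68.0 and 71.2 CPM and NS-DADm levels of 64.0, 62.1 and 61.8 CPM. WT 1 lay among the NS-DADm libraries, while WT 2 and WT 3 were above them (log2 -0.11 ± 0.06 SE; edgeR, BH adjusted p = 0.52).

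**Figure D2:**
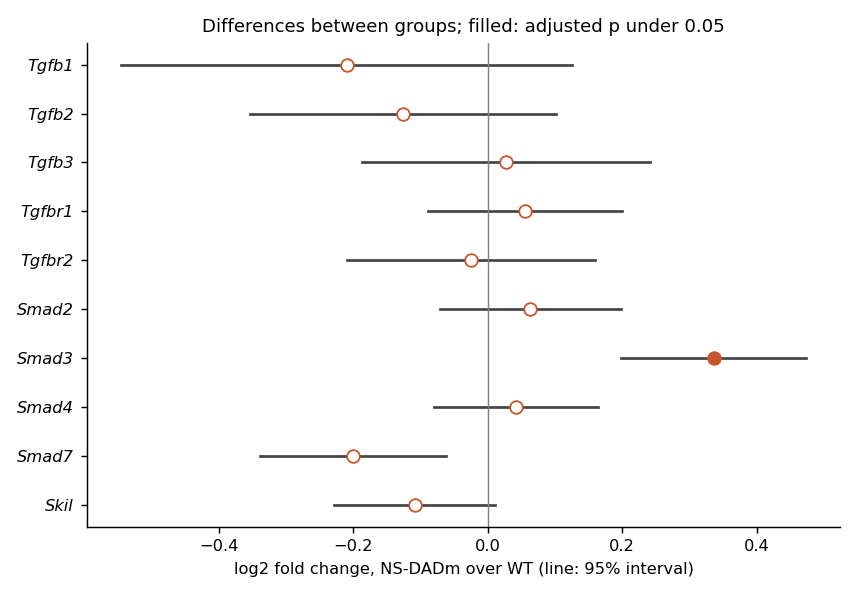
Log2 fold change of NS-DADm over WT (horizontal axis) for the 10 genes, as points with 95% intervals that are not adjusted for multiple genes; the filled point passed the threshold. Smad3 lies at 0.34, the other 9 genes lie between -0.21 and 0.06, and the interval of Smad7 ends at -0.06.

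In order of level per kilobase, taking the median of the 6 libraries, the genes ran Smad4 (12.6 RPKM), Smad2 (9.75), Skil (6.57), Tgfbr1 (5.86), Smad7 (5.81), Smad3 (5.59), Tgfb2 (3.64), Tgfb3 (2.69), Tgfbr2 (2.03) and Tgfb1 (0.69). Ranges of the 6 libraries overlapped among Tgfbr1, Smad7 and Smad3, so these 3 cannot be ordered. Skil and Smad3 also overlapped, with Smad3 above Skil in NS-DADm 2 and NS-DADm 3. Other neighbours in the order were apart. With the longest transcript as the length the medians kept this order, Smad2 and Skil overlapped, and Skil and Smad3 did not. The shared SMAD4 and the receptor-activated SMAD2 transcripts were thus more abundant than those of any ligand or receptor in the set. Smad7 was above Smad3 in each WT library (6.03 to 6.10 against 4.89 to 5.19 RPKM) and below it in each NS-DADm library (5.10 to 5.59 against 6.00 to 6.71 RPKM).

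The call of Smad3 rested on most of the libraries. Its log2 fold change stayed between 0.30 and 0.38 with each library left out in turn. It was past the threshold without WT 1 or NS-DADm 1, and not without WT 2 (edgeR, BH adjusted p = 0.066), WT 3 (0.11), NS-DADm 2 (0.18) or NS-DADm 3 (0.25). It was also not past the threshold when tested against a fold of 1.2 instead of no change (edgeR, BH adjusted p = 1). With the DESeq2 Wald test its adjusted p was 0.0065, and with limma voom 0.041.

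**Figure D3:**
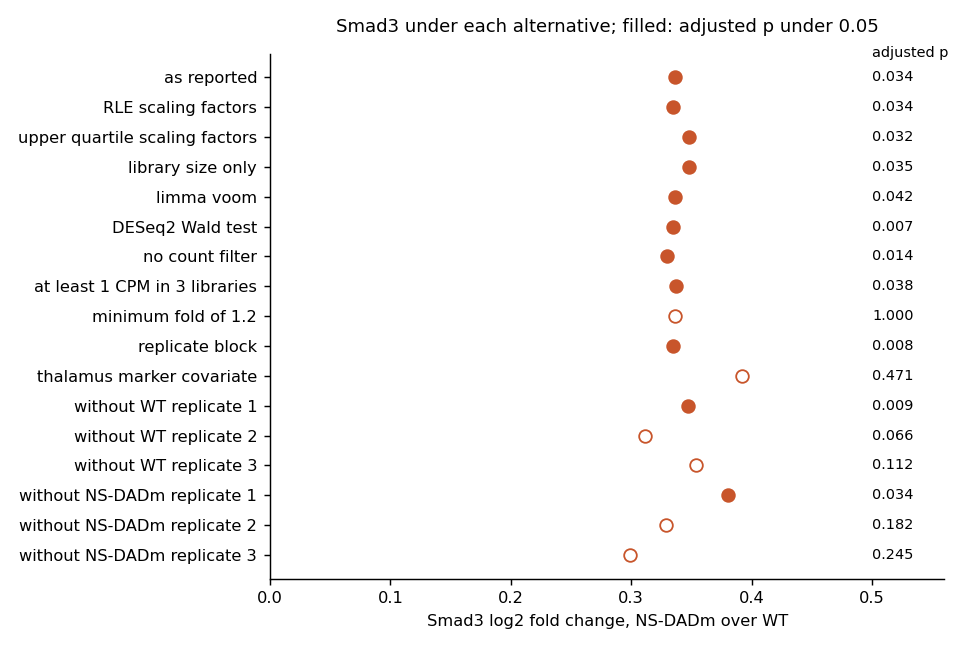
Smad3 log2 fold change (horizontal axis, from 0) in the reported fit and under each of 16 alternatives, with the adjusted p printed at the right; filled points passed the threshold. The change stays between 0.30 and 0.39 throughout, and 10 of the 16 alternatives keep the call.

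Thalamus marker RNA was lower in the NS-DADm libraries, in which Smad3 was higher. Among WT, WT 2 had the least marker RNA and the least Smad3. Among NS-DADm, NS-DADm 1 and NS-DADm 3 were close in marker RNA and had the least and the most Smad3 (33.3 and 37.2 CPM). NS-DADm 2, with the least marker RNA, lay between them in Smad3 at 35.7 CPM. Of the 13 markers, 5 fell past the threshold, as did 0.573% of all genes, and the list was chosen with earlier results of these data known. The mean of all 13 was 5.96, 5.14 and 5.62 log2 CPM in WT 1 to 3, against 4.52, 4.14 and 4.46 in NS-DADm 1 to 3. The groups did not overlap on this mean, so marker content and genotype cannot be told apart in these libraries. With the mean as a covariate, the log2 fold change of Smad3 was 0.39 and no longer past the threshold (edgeR, BH adjusted p = 0.47). In that fit Smad7 had -0.16 and Skil -0.19, against -0.20 and -0.11 without it, and Tgfb1, Tgfbr1, Smad2 and Smad4 changed sign, none past the threshold. Anterior pituitary markers were highest in NS-DADm 2, and without that library Smad3 had a log2 fold change of 0.33 (edgeR, BH adjusted p = 0.18). NS-DADm 1 and NS-DADm 3, at 261 and 245 CPM, still lay above the highest WT library, at 156 CPM. On this sum, mostly Gh in NS-DADm, pituitary content and genotype cannot be told apart here either, and the part of pituitary RNA was not tested.

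**Figure D4:**
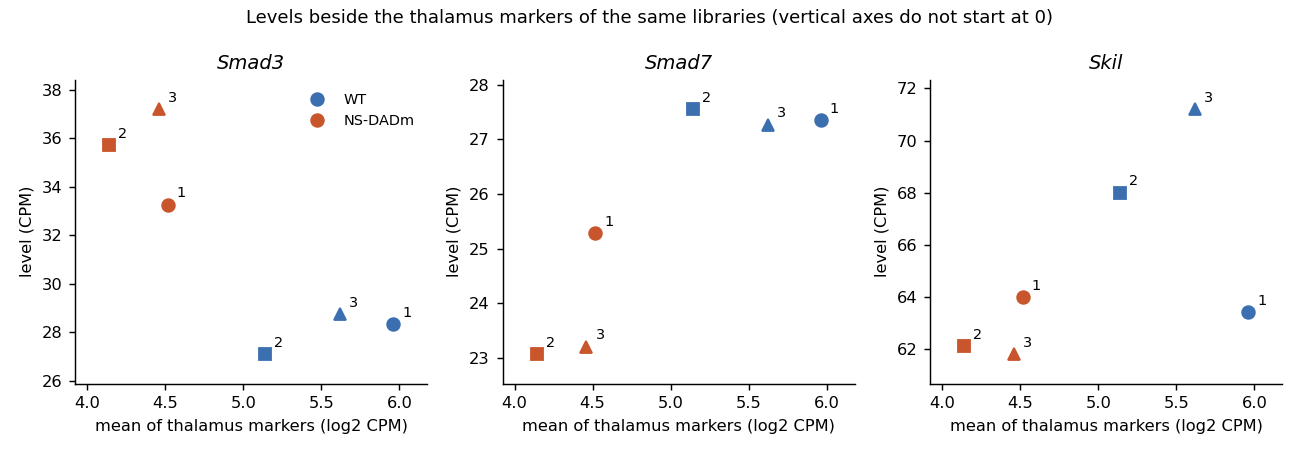
Levels of Smad3, Smad7 and Skil (CPM, vertical axes not from 0) beside the mean log2 CPM of 13 thalamus markers, 1 point per library, blue for WT and orange for NS-DADm, numbered by animal. The 2 groups lie apart on the marker axis (5.14 to 5.96 against 4.14 to 4.52). Smad3 lies between 27.1 and 28.7 CPM within WT and between 33.3 and 37.2 CPM within NS-DADm.

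Markers of other cell types that make or answer TGF-beta were summed in the same way. The 10 microglia markers gave 285 to 296 CPM in WT and 265 to 277 CPM in NS-DADm. Csf1r took a large part of that gap, with 80.4, 76.4 and 81.7 CPM in WT and 63.6, 65.8 and 69.8 CPM in NS-DADm, and of the 10 markers 7 were fitted below 0 and 3 above, Itgam being higher in every NS-DADm library. The 9 astrocyte markers summed to 4152 to 4449 and 4156 to 4354 CPM. None of either list passed the threshold. The 10 endothelial markers summed to 191 to 237 and 182 to 196 CPM, with WT 1 the highest. Of 10 mural cell markers, 5 were fitted below 0 and 5 above, and 1 fell past the threshold, Rgs5, from 28.8 to 29.3 CPM in WT to 18.6 to 20.7 CPM in NS-DADm. The mural list summed to 177 to 216 CPM in WT, highest in WT 1, and 159 to 173 CPM in NS-DADm. No marker of these 4 lists was at 0 in any library. The part of these cell types in the levels of the 10 genes was not tested.

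The other genes of the pathway were taken from 5 textbook lists of 92 genes, of which 88 were tested. None passed the threshold in the edgeR fit, and 1 did with DESeq2, the target gene Bhlhe40. Without an adjustment, 3 had a p under 0.05 with a higher and 9 with a lower value in NS-DADm (3.41 and 10.2% of 88), beside 4.40 and 6.46% of all tested genes. Fitted changes below 0 were 57 of the 88 (64.8%), beside 48.4% of all genes, and the median log2 fold change was -0.045 beside 0.004.

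Genes induced by TGF-beta had mixed values. Of 21 tested, 16 were fitted below 0 and 5 above, with a median log2 fold change of -0.08. Bhlhe40, a transcription factor that also belongs to the clock, came nearest to the threshold, with 82.9, 80.2 and 86.8 CPM in WT 1 to 3, against 70.7, 71.7 and 65.1 CPM in NS-DADm 1 to 3 (log2 -0.27 ± 0.06 SE; edgeR, BH adjusted p = 0.0502). Cdkn1a, a cell cycle inhibitor that SMAD3 and other factors such as p53 induce, went the other way, from 5.34 ± 0.23 to 7.11 ± 0.22 CPM (mean ± SD over 3 libraries; edgeR, BH adjusted p = 0.11). The groups did not overlap for either gene. Pmepa1, a feedback inhibitor that binds SMAD2 and SMAD3, measured 33.6 ± 1.2 and 28.5 ± 4.6 CPM with overlapping groups. Col1a2, a classical matrix target, varied among the WT libraries and little among the NS-DADm libraries: its WT levels were 26.6, 15.0 and 20.1 CPM and its NS-DADm levels 16.2, 15.6 and 16.7 CPM. Beside it, the 9 markers of fibroblasts and meninges, Col1a2 among them, summed to 159 to 224 CPM in WT, highest in WT 1, and 161 to 177 CPM in NS-DADm, and their part in that value was not tested. Ctgf, a standard reporter of TGF-beta activity, had a log2 fold change of 0.04.

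Genes that release the ligand or present it to the receptor had a median log2 fold change of -0.01 over 15 tested genes. Eng, an endothelial coreceptor, had WT levels of 19.7, 15.1 and 14.6 CPM and NS-DADm levels of 14.0, 13.3 and 14.1 CPM (edgeR, BH adjusted p = 0.40), and its WT 1 value moved with the endothelial markers. Lrrc32, which tethers latent ligand on cell surfaces, had a log2 fold change of -0.42 with overlapping groups. Tgfbr3 (betaglycan), which presents TGFB2, had 0.16, with NS-DADm 2 the highest library at 22.6 CPM.

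Regulators inside the cell had fitted values close to 0. The 17 tested genes had a median of 0.01 on the log2 scale, and all but Smad6, Bambi and Tgif2 lay between -0.07 and 0.10. Ski, which like SKIL represses SMAD complexes and binds NCOR1, measured 102 ± 1.2 and 107 ± 3.3 CPM, and the ubiquitin ligase gene Smurf1 62.7 ± 1.6 and 67.2 ± 1.9 CPM. Both had all NS-DADm libraries above all WT libraries without passing the threshold (edgeR, BH adjusted p = 0.67 and 0.52). Smad6, the inhibitor of the BMP branch, measured 1.62 ± 0.43 and 1.24 ± 0.36 CPM.

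The activin branch, which also signals through SMAD2 and SMAD3, had a median log2 fold change of -0.13 over 13 tested genes. Inhbb, the gene of the activin B subunit, had WT levels of 7.24, 8.37 and 7.95 CPM and NS-DADm levels of 6.38, 5.61 and 5.44 CPM, without overlap (log2 -0.44 ± 0.11 SE; edgeR, BH adjusted p = 0.11). Gdf10 measured 8.21 ± 1.8 and 5.61 ± 0.88 CPM with overlapping groups (edgeR, BH adjusted p = 0.23). Fstl3, whose protein binds and blocks activin, measured 0.43 ± 0.049 and 0.65 ± 0.035 CPM (edgeR, BH adjusted p = 0.49). It rested on 10 to 13 reads per WT library and 16 to 18 per NS-DADm library. Its SDs are smaller than counting so few reads gives, so they understate the error. Inha, of the inhibin subunit, and the receptor genes Acvr1b and Acvr2a had log2 fold changes of 0.13, -0.003 and 0.07.

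In the BMP branch, which signals through SMAD1, SMAD5 and SMAD9, the lowest p-values were those of ligands and an antagonist. Bmp4 measured 2.10 ± 0.15 and 1.41 ± 0.32 CPM, Bmp2 6.51 ± 0.58 and 5.17 ± 0.45 CPM, and the antagonist gene Chrdl1 4.12 ± 0.044 and 3.17 ± 0.14 CPM. All 3 had lower NS-DADm libraries without overlap and none passed the threshold (edgeR, BH adjusted p = 0.29, 0.31 and 0.27). Chrdl1 rested on 108 to 114 reads per WT library and 81 to 84 per NS-DADm library. Its SDs are smaller than counting these reads gives and understate the error. Over the whole list, NS-DADm libraries stood apart as lower for 4 genes and as higher for 2, Bmpr1a and Grem1. Over all genes these shares were 8.93% lower and 7.86% higher. Of 22 tested genes, 15 were fitted below 0 and 7 above, with a median of -0.05. The signal carriers Smad1, Smad5 and Smad9 had log2 fold changes of -0.09, 0.10 and 0.002, so none came near that of Smad3. Nothing in these lists was tested as a set.

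**Figure D5:**
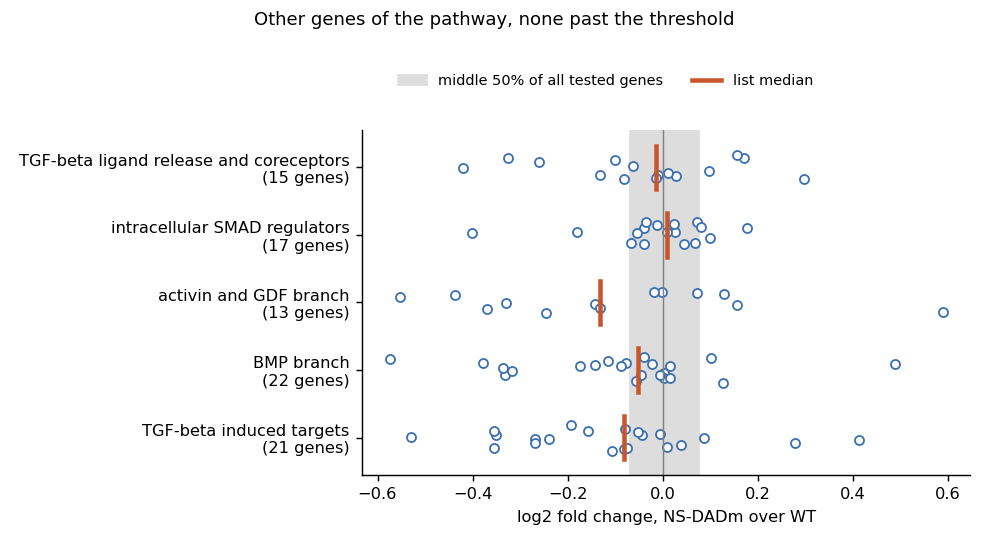
Log2 fold change of NS-DADm over WT (horizontal axis) for 88 other tested genes of the pathway in 5 lists, 1 circle per gene, with the list median as a vertical bar and the middle 50% of all tested genes shaded. Medians lie between -0.13 (activin and GDF branch) and 0.01 (intracellular regulators), and no gene of these lists passed the threshold.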

How the data were processed

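RNA was sequenced from the hypothalamus of 3 WT and 3 NS-DADm mice. The deposited values are raw read counts per gene symbol, made with TopHat2 2.0.9 on mm10 and HTSeq, per the submitters' processing notes; annotation, strand setting and kit: not given in the sources used here. Each table has 24518 rows, of which the last 5, classes of unassigned reads (no gene, 13.3 to 14.8% of entries; more than 1 gene, 1.00 to 1.06%; alignment not unique, 14.3 to 16.5%), were left out. Total counts on genes were 24.2 to 27.6 M (units of 1e6) per library. No 2 libraries of a group were duplicates, since their chi-square per degree of freedom was 3.30 to 9.98.

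After filterByExpr and TMM scaling, 15894 genes were compared by quasi-likelihood tests in edgeR 4.0.16 (R 4.3.3), with Benjamini-Hochberg (BH) adjustment and a threshold of 0.05. Intervals (95%) and SE were derived from the F statistics of that fit. On simulated data the fit was tested for its calls and their direction, and the coverage of the intervals was not tested. DESeq2 1.42.0, limma 3.58.1, 3 other scalings, 2 other filters, a minimum fold of 1.2, a replicate block, a covariate and each library left out were alternatives. CPM used TMM-scaled library sizes. Exon lengths and positions came from GENCODE M21 (mm10), promoters from RefSeq (GRCm38.p6), and relatives of each transcript from BLAST 2.17.0. Exons of Tgfb2 overlap 1 gene on the opposite strand in 2.14% of their length, and those of Tgfb3 overlap 2 such genes, in 4.82% and 7.60%; reads from both strands there may be counted together.

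The 10 genes and all gene lists were chosen with earlier results of these data known. Named were all 10 genes and, from each list, up to 3 with the smallest p; other genes named from the lists were picked for their role or after their values were seen.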

Additional observations from a re-analysis of the deposited data

How the results depend on the processing

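Of the 10 genes, 9 stayed below the threshold in all 16 alternatives, and Smad3 kept its direction in all of them and its call in 10. The number of the 10 genes called higher was 0 against a minimum fold of 1.2 and with the thalamus marker covariate, and 0 to 1 with a library left out; none was called lower in any. Over all genes, 13 were called higher and 91 lower. These counts were 50 and 232 with DESeq2, 2 and 6 against a minimum fold of 1.2, 6 and 2 with the covariate, and 31 and 172 with no count filter; 60 were lower with library size alone. With a library left out they ranged from 1 to 102 and from 4 to 243. Of the wider pathway lists, 1 gene was called lower with DESeq2 and with no count filter (Bhlhe40 in both), and 0 to 3 with a library left out.

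Labels number the animals 1 to 3 in both groups, but nothing says that a number pairs them. Deviations from the group means correlated at 0.205, 0.127 and -0.0244 for the pairs 1, 2 and 3 over 14534 genes, and WT 3 correlated best with NS-DADm 2. With the replicate block, 77 genes were called higher and 332 lower, Smad3 among the first (log2 0.34, edgeR, BH adjusted p = 0.0084), and 2 wider pathway genes lower, Bhlhe40 and Gdf10. Tgfb1, at 78 to 121 reads a library, had the least depth. A decrease as large in size as the increase of Smad3 was within its interval, and such an increase was not. The same held for Tgfb2, with an interval from -0.353 to 0.101.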

Other observations

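Over the 6 libraries, the genes whose log2 CPM most resembled that of Smad3, among 10529 with a mean of at least 10 CPM, were Ppp4r1l-ps, Rnf25, Ccdc90b, Col6a5 and Tmem87b (Pearson r of 0.988, 0.976, 0.972, 0.972 and 0.971). They share libraries and depth with Smad3, 18 genes had r above 0.95, and none of the 5 passed the threshold between the groups (log2 fold changes of 0.11 to 0.40; edgeR, BH adjusted p of 0.12 to 0.64). These correlations over 6 points in 2 groups are a description.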
